A study of Mus musculus with 18 samples.

Results

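Isolated Zfp genes are protein-coding mouse genes named Zfp plus a number that stand apart from other genes of that name. They were taken from the autosomes of GRCm38, with the rule that no other such gene lay within 150 kb on the chromosome, and Zfp42, Zfp57 and Zfp352 were left out. The rule gave 135 genes on all 19 autosomes, out of 360 autosomal genes of that name and 20558 autosomal protein-coding genes. The other 222 autosomal Zfp genes, each with another Zfp gene within 150 kb, are called clustered Zfp genes here. The distance at which a gene became isolated fell between Zfp629 (157.9 kb to the nearest Zfp gene) and the pair Zfp467 and Zfp775 (156.0 kb apart) on the inside, and Zfp938 (147.1 kb) and the pair Zfp68 and Zfp157 (142.8 kb apart) on the outside. All 6 of these genes had a peak at an end, as did 72.8% of all autosomal protein-coding genes.

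The peaks come from ATAC-seq, in which a transposase inserts adapters into open DNA, of mouse embryonic stem cells of the line dTKO. All cells were Suv39h1 fl/fl, Suv39h2 -/- and Setdb1 fl/fl. They received auxin (100 µg/ml) together with dTAG13 (0.5 µM), small molecules used to degrade proteins that carry a matching tag. The 18 libraries cover 0, 3, 6, 12, 24 and 48 h of treatment, each time with 3 libraries. The time course has 0 h as its baseline, but the peak list is pooled over all libraries. No value below therefore belongs to a time or a library, none has an error between replicates, and depth is unknown. The labels do not say which proteins carry a tag, and every group carries the Suv39h2 deletion. Each share below is therefore a description over genes, and its 95% Wilson interval covers counting error only.

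Zfp genes mostly encode proteins with C2H2 zinc fingers, short modules that hold a zinc ion and read DNA. Many carry a KRAB domain, which recruits the corepressor TRIM28 and, through it, SETDB1 and H3K9 methylation, and such genes tend to lie in clusters of recent copies. Zfp genes outside clusters include conserved regulators without KRAB, among them factors of stem cells, of development and of RNA metabolism. Zfp36, the RNA-binding protein tristetraprolin, has the name but fingers of the CCCH kind. Clusters of KRAB genes are themselves known as sites of H3K9 methylation.

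The stem cell label was set beside marker genes. All 5 stem cell markers (Pou5f1, Nanog, Sox2, Esrrb and Tfcp2l1) had a peak within 500 bp of an annotated end, as did all 5 neuronal markers (Pax6, Sox1, Tubb3, Nes and Olig1), against 1 of 5 fibroblast markers (Thy1), 1 of 5 blood markers (Spi1) and 72.8% of all autosomal protein-coding genes. The blood marker Gata1, on chromosome X, had no peak at an end, but a peak covered the promoter of its single listed start. A peak at a gene does not measure its expression.

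The promoters that show how open and closed starts of isolated Zfp genes differ in sequence are printed here, each as the 250 bases before a listed start, 5′ to 3′, from RefSeq on GRCm38.p6, with CpG dinucleotides in capitals. Zfp791 has an outer start without a peak (chr8:85123096-85123345, minus strand) and an inner start with a peak 3404 bp further into the gene (chr8:85119692-85119941, minus strand). Zfp735 (chr11:73688528-73688777) and Zfp648 (chr1:154200937-154201186), both on the plus strand, have no peak at their single listed start. Zfp281 (chr1:136624651-136624900, plus strand) has a CpG-rich start with a peak, and Zfp710 (chr7:80024564-80024813, plus strand) has a CpG-poor start with a peak. Which promoters to print was chosen after their values were seen.
Zfp791 outer start: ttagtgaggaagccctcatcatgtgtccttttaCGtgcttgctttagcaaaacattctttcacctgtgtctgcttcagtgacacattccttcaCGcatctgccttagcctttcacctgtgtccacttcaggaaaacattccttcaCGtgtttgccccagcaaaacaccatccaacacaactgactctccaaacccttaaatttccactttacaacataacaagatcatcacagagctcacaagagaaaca
Zfp791 inner start: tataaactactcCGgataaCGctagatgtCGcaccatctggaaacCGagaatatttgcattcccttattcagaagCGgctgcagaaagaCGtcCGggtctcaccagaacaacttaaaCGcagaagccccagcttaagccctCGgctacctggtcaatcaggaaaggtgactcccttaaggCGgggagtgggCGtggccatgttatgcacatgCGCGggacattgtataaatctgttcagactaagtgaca
Zfp735: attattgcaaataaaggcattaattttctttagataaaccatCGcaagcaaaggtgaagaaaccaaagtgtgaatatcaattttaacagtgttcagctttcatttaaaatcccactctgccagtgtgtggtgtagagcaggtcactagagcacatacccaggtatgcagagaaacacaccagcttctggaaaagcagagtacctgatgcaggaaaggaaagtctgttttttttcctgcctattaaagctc
Zfp648: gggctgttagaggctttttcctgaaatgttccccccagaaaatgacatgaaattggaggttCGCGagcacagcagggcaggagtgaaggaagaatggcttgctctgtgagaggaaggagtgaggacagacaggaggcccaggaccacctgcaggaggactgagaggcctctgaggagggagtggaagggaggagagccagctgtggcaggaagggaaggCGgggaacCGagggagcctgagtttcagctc
Zfp281: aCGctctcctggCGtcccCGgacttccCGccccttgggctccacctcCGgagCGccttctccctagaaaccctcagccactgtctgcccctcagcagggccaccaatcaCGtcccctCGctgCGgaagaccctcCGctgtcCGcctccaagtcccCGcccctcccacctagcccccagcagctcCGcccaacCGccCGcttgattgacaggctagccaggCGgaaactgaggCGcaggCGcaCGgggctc
Zfp710: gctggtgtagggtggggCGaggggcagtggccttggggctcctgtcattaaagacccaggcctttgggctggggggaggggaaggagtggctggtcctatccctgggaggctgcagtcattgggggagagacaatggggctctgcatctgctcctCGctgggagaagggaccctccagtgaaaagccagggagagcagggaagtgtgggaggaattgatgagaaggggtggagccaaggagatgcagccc
The 250 bases hold 3 CpG at the outer and 13 at the inner start of Zfp791, 1 in Zfp735, 4 in Zfp648, 19 in Zfp281 and 2 in Zfp710.

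Isolated Zfp genes had a peak at an end in nearly all cases. A peak overlapped the 500 bp either side of an annotated end in 124 of 135 genes (91.9%, 95% interval 86.0 to 95.4), in 206 of 222 clustered Zfp genes (92.8%, 88.6 to 95.5) and in 72.8% of all 20558 autosomal protein-coding genes. The intervals of isolated and clustered genes overlapped, and both lay above the share of all genes. Both ends had a peak in 21 isolated genes (15.6%), in 45 clustered genes (20.3%) and in 18.9% of all genes.

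Peaks lay far more often at the start end than at the other end. The RefSeq promoter table used here gives at least 1 transcription start, and with it the strand, for 106 of the 135 genes, and the other 29 were not scored by end. The start end had a peak in 95 of these 106 (89.6%, 82.4 to 94.1), in 176 of 192 clustered genes (91.7%, 86.9 to 94.8) and in 68.4% of all 16457 genes with a listed start. The other end, where transcription stops, had a peak in 21 of 106 isolated genes (19.8%, 13.3 to 28.4), in 41 of 192 clustered genes (21.4%, 16.1 to 27.7) and in 22.5% of all genes. At the other end the share of isolated genes was thus near that of all genes, whereas at the start end it was higher. With windows of 2000 bp the order at the other end turned, with 54.7% of isolated genes against 49.5% of all genes. A peak at the other end and none at the start was seen in 3 isolated genes, Zfp341, Zfp821 and Zfp957, of which Zfp341 and Zfp957 were named after their values were seen.

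**Figure D1:**
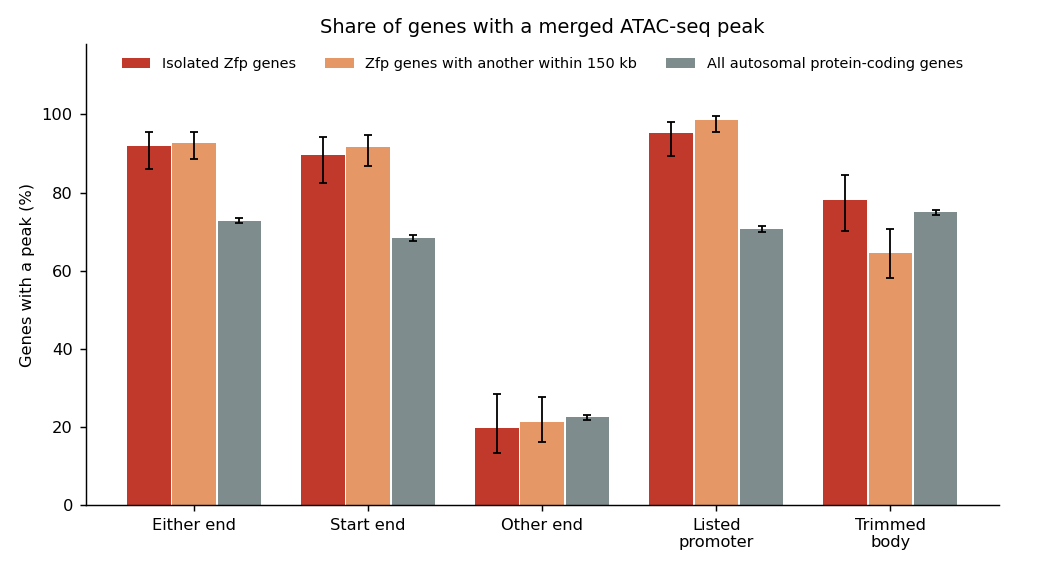
Bars give the percentage of genes with a peak, on the y axis, at either end, at the start end, at the other end, over a listed promoter and in the trimmed gene body, for isolated Zfp genes, clustered Zfp genes and all autosomal protein-coding genes; error bars are 95% Wilson intervals. Both Zfp groups stand above 89% at the start end, against 68.4% of all genes, and the groups lie close together, near 20%, at the other end.

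The profile along the gene shows the same contrast by position. The annotated start itself was under a peak in 90 of 106 isolated genes (84.9%), in 167 of 192 clustered genes (87.0%) and in 62.5% of all genes. At 1 kb into the gene the shares were 22.6% in isolated genes, 17.2% in clustered genes and 23.8% in all genes. At 1 kb before the start they were 12.3%, 4.17% and 9.78% in the same order. The annotated other end itself was under a peak in 4 of 106 isolated genes (3.77%), in 12 of 192 clustered genes (6.25%) and in 7.74% of all genes, the lowest value of that last curve.

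**Figure D2:**
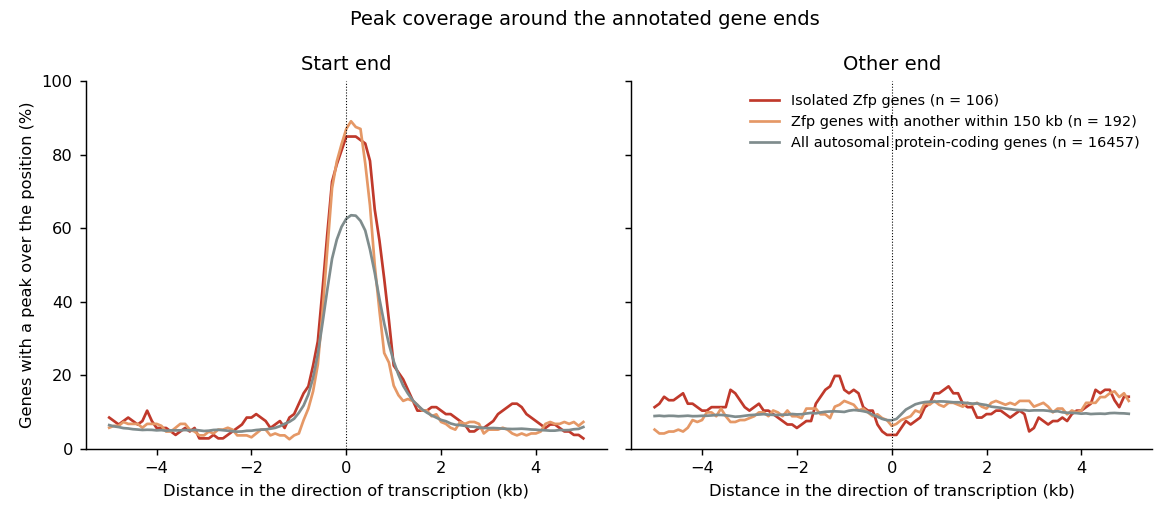
The y axis gives the percentage of genes with a peak over each position, in steps of 100 bp, and the x axis the distance in kb from the annotated start end (left) or other end (right), positive in the direction of transcription, for 106 isolated Zfp genes, 192 clustered Zfp genes and 16457 autosomal protein-coding genes with a listed start. The shares at the start position are 84.9%, 87.0% and 62.5%, and at the other end position 3.77%, 6.25% and 7.74%.

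Peaks at the ends of isolated genes had a median width close to that of all genes and above that of clustered genes. The widest end peak of a gene had a median of 1328 bp (quartiles 1094 and 1588 bp, n = 124) in isolated genes, 1128 bp (948 and 1367 bp, n = 206) in clustered genes and 1331 bp (1035 and 1682 bp, n = 14973) in all genes. The difference in medians between isolated and clustered genes was not tested, since genes are not replicates. Zfp423, a developmental partner of EBF factors in fat precursors and cerebellum, had the widest, 3031 bp (chromosome 8, 87960054 to 87963084). It was followed by Zfp91 with 2724 bp, Zfp958 with 2324 bp, Zfp664 with 2315 bp and Zfp651 with 2178 bp. The narrowest were those of Zfp516, a regulator of brown fat, with 338 bp, Zfp369 with 558 bp, Zfp821 with 630 bp, Zfp317 with 651 bp and Zfp469 with 669 bp. That of Zfp821 lay at its other end, and its listed promoters were under a peak of 2388 bp. Zfp516, Zfp369 and Zfp469 have no listed start here, so whether their end peaks lie at a start is not known. The peaks of Zfp664 and Zfp91 also covered a listed start of a neighbour, Ccdc92 and Lpxn, so their width does not belong to the Zfp gene alone. Such a shared peak was found in 10 of the 106 isolated genes with a start in the promoter table used here. Shared peaks were looked for in isolated genes alone, so whether this number is usual is not known.

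The 11 isolated genes without a peak at an end were Zfp648, Zfp217, Zfp831, Zfp46, Zfp536, Zfp827, Zfp791, Zfp558, Zfp735, Zfp366 and Zfp474. The promoter table gives a start for 8 of them, and in 6 of these 8 a peak covered a listed promoter inside the annotated gene. The like count was not taken in clustered genes or in all genes. Zfp217, an oncogene product that in mouse stem cells also restrains RNA methylation, had a narrow peak of 371 bp at a start 9002 bp inside the gene and a peak of 2370 bp at a start 20457 bp inside. Zfp536, a zinc finger gene of the brain, had a peak of 2202 bp over its single listed start, 4287 bp inside. Zfp827 had a peak of 3187 bp over its start at 951 bp, Zfp558 a peak of 1449 bp over both of its listed starts, at 4656 and 4742 bp, and Zfp46 a peak of 1176 bp over the inner of its starts, at 1899 bp. In Zfp791 the outer start was 2835 bp from the nearest peak, and the inner start lay under a peak of 1924 bp.

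Zfp648 and Zfp735 had no peak at an end or over their listed promoter. The nearest peaks to their starts lay 3337 bp and 12905 bp away, in both cases inside the gene. Zfp831, Zfp366 (in dendritic cells the transcription factor DC-SCRIPT) and Zfp474 are without a listed start here, and from an annotated end of these genes it was 3.33, 1.74 and 37.1 kb to the closest peak. In all, 130 of 135 isolated genes had a peak at an end or over a listed promoter. This combined count was taken for isolated genes alone and cannot fall below that by end, so it has no share of all genes to stand against. By listed promoter alone a peak was found in 101 of 106 isolated genes (95.3%, 89.4 to 98.0), 189 of 192 clustered genes (98.4%, 95.5 to 99.5) and 70.7% of all genes.

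**Figure D3:**
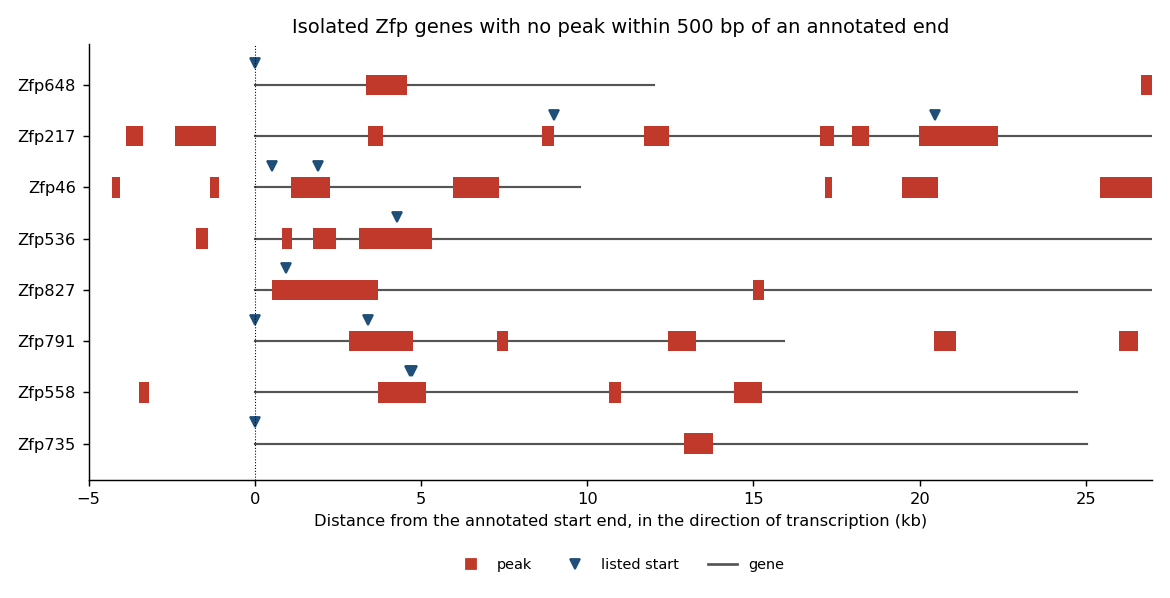
Each row is 1 of the 8 isolated Zfp genes with no peak within 500 bp of an annotated end and with a listed start, drawn along the x axis as distance in kb from the annotated start end; red boxes are peaks, triangles are listed starts and the grey line is the gene, drawn up to 27 kb. Peaks lie under an inner start in 6 genes, whereas the starts of Zfp648 and Zfp735 have their nearest peak 3337 and 12905 bp away.

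The closed promoters of isolated genes were poor in CpG, as were those of clustered genes and of all genes. Of 144 listed promoters of isolated genes, taken as 250 bp before to 50 bp after a start, 135 overlapped a peak (93.8%, 88.5 to 96.7), against 205 of 214 in clustered genes (95.8%, 92.2 to 97.8) and 69.0% of 20085 in all genes. Of the isolated genes, 32 had more than 1 listed start, often under the same peak. Such starts were counted separately, so listed promoters are not independent and these intervals may be too narrow. The 135 promoters of isolated genes with a peak held a median of 19 CpG in 300 bp (range 3 to 59), with an observed over expected ratio of 0.758. The 9 without held a median of 4 (range 2 to 5), with a ratio of 0.242. In clustered genes the medians were 11 CpG with a peak and 2 without (ratios 0.576 and 0.136). In all genes they were 21 and 2 (ratios 0.749 and 0.164). The 9 promoters of isolated genes without a peak belonged to Zfp648, Zfp46, Zfp384, Zfp541, Zfp788, Zfp791, Zfp735, Zfp652 and Zfp957. Of these, Zfp541, Zfp788 and Zfp957 fall outside the rule for named genes and were named after their values were seen.

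In 4 of these genes, Zfp46, Zfp384, Zfp788 and Zfp791, the same gene had an open and a closed listed start. Zfp384 is a transcription factor with C2H2 fingers. The 3 starts of Zfp384 under a peak held 25, 22 and 34 CpG and its closed start held 3. In Zfp46 the open start held 18 CpG and the closed start 3, in Zfp791 they held 14 and 3, and in Zfp788 they held 8 and 4. In each of the 4 genes the closed start was the poorer in CpG. The printed bases of the 2 starts of Zfp791 show it over 250 bases. Genes with an open and a closed start were not compared in this way in the other groups.

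Listed promoters were then divided by CpG number, in classes chosen after the values were seen. Starts of the same gene were again counted separately. With 10 or more CpG, all 112 listed promoters of isolated genes had a peak (48 with 10 to 19 and 64 with 20 or more), against 96.4% of promoters with 10 to 19 and 99.6% with 20 or more in all genes. Clustered genes likewise had a peak at all 81 listed promoters with 10 to 19 and all 43 with 20 or more. With 5 to 9 CpG it was 21 of 22 in isolated genes (95.5%, 78.2 to 99.2), 66 of 68 in clustered genes (97.1%, 89.9 to 99.2) and 1630 of 2925 in all genes (55.7%, 53.9 to 57.5). With fewer than 5 CpG it was 2 of 10 in isolated genes (20.0%, 5.67 to 51.0), 15 of 22 in clustered genes (68.2%, 47.3 to 83.6) and 782 of 5526 in all genes (14.2%, 13.3 to 15.1). The 2 open ones in isolated genes were Zfp970, also named after its values were seen, with 3 CpG and a peak of 1278 bp, and Zfp710, with 4 CpG and a peak of 1448 bp. Across the 99 isolated genes whose outermost listed promoter had a peak, the number of CpG and the width of the peak had a Spearman correlation of 0.33, against 0.38 over 11376 genes of all kinds. These points share 1 pooled peak list, and CpG number also follows GC content.

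**Figure D4:**
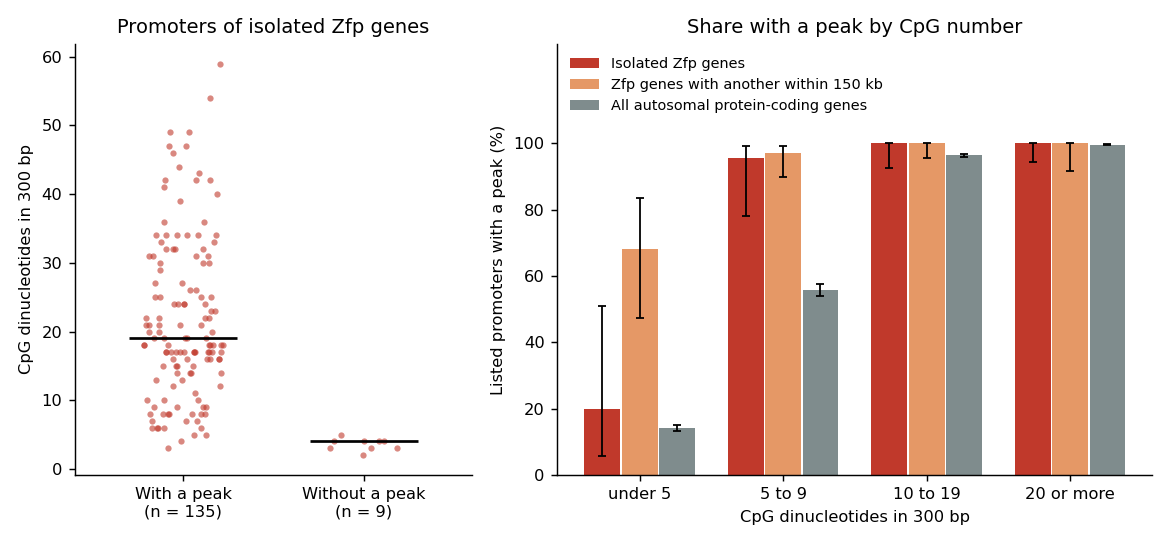
Left, the number of CpG dinucleotides in 300 bp, on the y axis, for each listed promoter of isolated Zfp genes with a peak (135) and without (9), with the median as a line at 19 and at 4. Right, the percentage of listed promoters with a peak, on the y axis, by CpG number, on the x axis, for the 3 groups, with 95% Wilson intervals; in the class of 5 to 9 the shares are 95.5%, 97.1% and 55.7%.

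Promoters of isolated genes had more CpG than those of clustered genes. With the outermost listed promoter of each gene, the median was 17.5 CpG (quartiles 9.25 and 25, n = 106) in isolated genes, 11 (7 and 17, n = 192) in clustered genes and 14 (4 and 25, n = 16457) in all genes, and median GC content was 59.2%, 53.3% and 56.7%. These values come from the reference sequence and not from the cells. Among short words searched on both strands of the same 300 bp, CCGGAAG, the core read by ETS factors, was in 24 of 106 isolated genes (22.6%), in 45 of 192 clustered genes (23.4%) and in 12.3% of all promoters. GGGCGG, the box read by SP and KLF factors, was in 54.7% of isolated, 38.0% of clustered and 47.3% of all promoters, and CCAAT, the box read by NF-Y, in 41.5%, 55.2% and 39.1%. TATAAA was in 8.49% of isolated, 4.17% of clustered and 13.5% of all promoters. GATGGCG (6.60%, 4.69% and 4.54%), GCATGCG (5.66%, 6.77% and 4.59%) and TGACGTC (4.72%, 4.69% and 4.07%) were rare in each group, given in the same order. No word contains another, and a match is a run of letters and not a bound site.

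Beyond the ends, the median peak density in bodies of isolated genes was above that of all genes. Its 95% interval, 6.64 to 11.9 per 100 kb, still took in the median of all genes. With 2 kb removed at both ends, 124 genes longer than 5 kb had a body to score. At least 1 peak midpoint lay in 97 of them (78.2%, 70.2 to 84.6), in 139 of 215 clustered genes (64.7%, 58.1 to 70.7) and in 74.9% of all 16048 genes scored. The median density was 8.94 peaks per 100 kb in isolated genes (quartiles 3.13 and 16.0), 7.39 in clustered genes (0 and 14.3) and 7.59 in all genes (0 and 14.5). Isolated genes were longer than clustered ones, with median lengths of 21275 bp against 16029 bp, and the part of gene length in these shares was not tested. Summed over the group, the order turned, with 547 peaks or 9.46 per 100 kb in isolated bodies, 476 peaks or 11.3 per 100 kb in clustered bodies and 7.22 per 100 kb in all bodies.

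Body density varied widely among members. Among genes of at least 20 kb, the densest were Zfp207, a spindle protein that binds BUB3, with 7 peaks or 32.9 per 100 kb, Zfp64 with 15 or 25.7, Zfp532 with 24 or 22.8, Zfp951 with 12 or 22.3 and Zfp516 with 20 or 21.8. Zfp644, a partner of the H3K9 methyltransferases G9a and GLP, Zfp945, Zfp474, Zfp410, an activator of Chd4, and Zfp367 had 0 peaks in the trimmed body, although all but Zfp474 had an end peak. The gene with most peaks in its body was Zfp423, with 41 over 300.2 kb of gene or 13.8 per 100 kb, followed by Zfp536 with 30 over 456.0 kb or 6.64 per 100 kb. Along the trimmed body of 97 isolated genes with a listed start, 4 equal stretches from start to other end held 69, 103, 82 and 77 of 331 peaks (20.8%, 31.1%, 24.8% and 23.3%), against 23.8%, 24.8%, 24.7% and 26.7% of 51580 peaks in all genes. In isolated genes the second stretch held the most peaks, and the first held the fewest. In 187 clustered genes the stretches held 100, 78, 95 and 96 of 369 peaks. There the first stretch held the most and the second the fewest. Peaks were pooled over genes, and the 331 include the 41 of Zfp423 and the 30 of Zfp536. How far such long genes set these shares was not tested.

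The 50 kb outside both ends held a median of 12 peaks in isolated genes (quartiles 8 and 16, range 2 to 28), 13 in clustered genes (9 and 16, range 2 to 28) and 11 in all genes (6 and 16, range 0 to 36). The medians were 6 peaks before the start and 6 after the other end in isolated genes, the same in clustered genes, and 5 and 5 in all genes. Isolated genes had a median of 2 other protein-coding genes reaching into these flanks, against 3 in clustered genes and 3 in all genes. The rule of isolation keeps other Zfp genes out of these flanks, so this count is not independent of the rule. Most peaks were around Zfp64 (28), Zfp335, a regulator of neurogenesis (24), Zfp281, a regulator of the exit from pluripotency (24), Zfp184 and Zfp654 (23 each, level with Zfp523), and fewest around Zfp831, Zfp40, Zfp641 and Zfp521, with 2 each, and then Zfp474 and Zfp644 with 3 each. Zfp281 had no other protein-coding gene within 50 kb and Zfp64 none either. Across isolated genes the count in the flanks had a Spearman correlation of 0.36 with the number of neighbouring genes (n = 135, against 0.44 over all 20558 genes) and of 0.29 with the density in the body (n = 124, against 0.38 over 16048 genes). Neighbouring genes can share peaks, so these are descriptions.

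**Figure D5:**
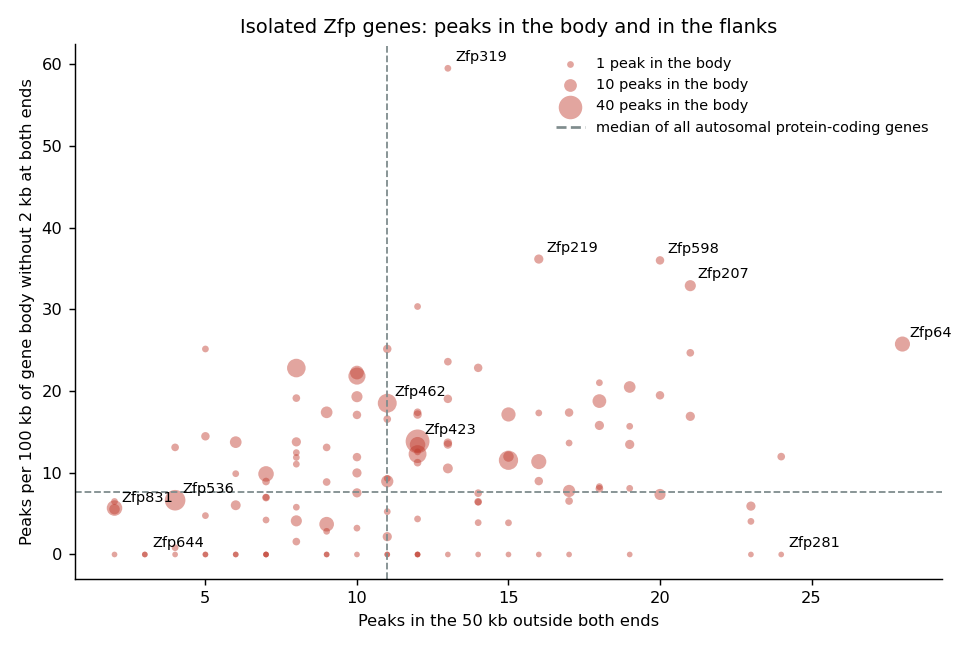
Each point is 1 of 124 isolated Zfp genes with a scored body, with peaks in the 50 kb outside both ends on the x axis and peaks per 100 kb of trimmed body on the y axis; point size follows the number of peaks in the body and dashed lines are the medians of all autosomal protein-coding genes, 11 and 7.59. Zfp64 stands farthest right with 28, Zfp281 has 24 peaks in the flanks and 0 in its short body, and Zfp319, labelled after its value was seen, is highest with a single peak in a short body.

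By role, genes linked to pluripotency had the highest median number of peaks in the flanks among the 5 lists of Zfp genes. Genes of tissue development had the lowest. Over all autosomal genes the median in the flanks was 11 and that of body density 7.59. The lists were chosen with earlier results of these data known, and they overlap. Zfp207 is in the lists of pluripotency and of RNA metabolism. Zfp462 is in those of pluripotency and of H3K9 methylation, and Zfp638 in those of RNA metabolism and of H3K9 methylation. Of 8 genes linked to pluripotency, 7 had an end peak, a share near the 91.9% of all isolated Zfp genes, against 72.8% of all autosomal genes. Zfp217 had its peaks at inner starts. Their flanks held a median of 19 peaks (range 11 to 24), and their bodies a median of 18.5 per 100 kb in 7 genes scored. Zfp143, a factor of promoters and chromatin loops, had an end peak of 1718 bp, 13.5 peaks per 100 kb of body and 19 in the flanks. Zfp219, a partner of Oct4 and Nanog, had a density of 36.1 from 4 peaks and 16 peaks in the flanks. Zfp296, a stem cell factor, had a peak of 682 bp over its listed start, a wider one of 1326 bp at its other end and 17 peaks in the flanks, and Zfp706 had an end peak of 1671 bp and 19 in the flanks.

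Of 12 genes of tissue development, 9 had an end peak, a share near the 72.8% of all autosomal genes and below the 91.9% of all isolated Zfp genes. Zfp536, Zfp366 and Zfp831 had none. In Zfp536 a peak of 2202 bp covered the single listed start, 4287 bp inside the gene. The flanks of the 12 genes held a median of 9 peaks (range 2 to 23) and their bodies a median of 6.64 per 100 kb in 11 genes. Zfp521, a regulator of neural and blood progenitors, had an end peak of 719 bp, 16 peaks in its body and 2 in its flanks. Zfp503, a factor of the developing striatum, had an end peak of 817 bp, 0 peak midpoints in its body and 9 in the flanks. Peaks still covered 44.6% of its short trimmed body of 1643 bp. Zfp703 had an end peak of 1178 bp and Zfp750, a regulator of epidermal differentiation, an end peak of 1750 bp. Developmental genes of the list thus ranged from no peak at either end to the widest end peak of all members, that of Zfp423. That peak reached neither listed promoter of Zfp423, which overlapped other peaks, of 1856 and 615 bp.

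All 10 genes of RNA metabolism and translation had an end peak, which is near the share of all isolated Zfp genes (91.9%, against 72.8% of all autosomal genes). They had a median width of 1184 bp and a median of 14 peaks in the flanks. They include Zfp36, with an end peak of 676 bp, Zfp106, an RNA-binding protein of neurons and muscle, with 1048 bp, Zfp598, a ubiquitin ligase of collided ribosomes, with 1178 bp and 3 body peaks or 36.0 per 100 kb, and Zfp622, a factor of ribosome assembly, with 1539 bp. All 11 other general regulators had an end peak too, again near the 91.9% of all isolated Zfp genes and against 72.8% of all autosomal genes, with a median width of 1830 bp and a median of 16 peaks in the flanks. Among them Zfp148 had 2126 bp, Zfp687 2083 bp, Zfp592 1991 bp, Zfp609, a partner of the cohesin loader, 1980 bp, and Zfp131 1972 bp, a peak that also covered a listed start of Gm46390. Zfp652 had a peak of 992 bp that lay 325 bp from its start and left its listed promoter uncovered.

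Of 25 genes of corepressors and H3K9 methylation, 24 had an end peak, against 72.8% of all autosomal genes, among them Trim28 (2246 bp), Setdb1 (1337 bp) and its partner Atf7ip (2361 bp), and Cbx1, Cbx3 and Cbx5, which encode HP1 proteins. Dnmt1 was the exception, with 2 of its 3 listed promoters under a peak. Suv39h1 and Atrx of this list lie on chromosome X, outside the autosomal comparison. Suv39h1, Suv39h2 and Setdb1 carry the fl/fl or -/- alleles named above in these cells. Of 8 Zfp genes linked to H3K9 methylation or KRAB repression, only 3 were isolated. Zfp462, which works with G9a and GLP in stem cells, had an end peak of 1501 bp, 25 body peaks or 18.5 per 100 kb and 11 in the flanks. Zfp638, which silences unintegrated retroviral DNA with the HUSH complex, had an end peak of 1535 bp, 9 body peaks or 7.77 per 100 kb and 17 in the flanks. Zfp644 had an end peak of 1610 bp, 0 body peaks and 3 in the flanks. The other 5, Zfp568, Zfp708, Zfp809, Zfp819 and Zfp932, lay in clusters, and all but Zfp708 had an end peak.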

How the data were processed

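Per the labels, stem cells gave 18 ATAC-seq libraries, 3 at each of 6 times. MACS2 2.2.7.1, Bowtie2 2.4.2 and Trimmomatic 0.36 are tools that the submitters' processing notes mention, beside the builds GRCm38 and mm10, without saying what each was used for. The settings for calling, filtering and merging peaks are not given in the sources used here, and a stricter threshold would remove peaks. The deposited list gives 166066 peak positions of 198 to 10001 bp, pooled over libraries, with no count, score or other value, so the comparison of later times with 0 h was not run, and depth is unknown.

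Gene positions came from RefSeq GRCm38.p6, without rows of scaffolds and patches. The 300 bp promoters and strands came from a RefSeq table of the same build. It matched 106 of 135 members, which may not stand for the other 29. Proteins were not analysed here. Peak midpoints were counted in bodies and flanks. No test was run, because there are no samples to test over and genes are not replicates. Members and lists were chosen with earlier results of these data known. Genes are named by membership of the lists, absence of an end peak, or the 5 highest and lowest values of end width, body density (genes of at least 20 kb) and flank count. Scoring was tested on simulated peaks. Computation used scipy 1.17.1, matplotlib 3.10.9, pandas 2.3.3 and numpy 2.4.6 under Python 3.11.15.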

Additional observations from a re-analysis of the deposited data

How the results depend on the processing

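Isolated genes with an end peak stayed above all autosomal genes in each of the 11 alternatives run. The share moved outside its interval with windows of 2000 bp alone, to 95.6% of isolated genes against 81.3% of all genes, and lay between 86.7% and 95.3% in the others. The start end moved to 95.3% with windows of 2000 bp, against 75.7% of all genes. The other end moved to 11.3% with windows of 250 bp and to 54.7% with windows of 2000 bp, against 15.1% and 49.5% of all genes, so its order against all genes turned in the second. Median body density moved to 12.9 per 100 kb with no bases removed (10.9 in all genes) and to 3.92 with peaks wider than the median of 578 bp alone (2.29 in all genes). As the share of the body covered it was 6.43%, against 4.64% in all genes. The median in the flanks moved to 7 with wide peaks alone (6 in all genes), and with flanks of 25 kb, counts scaled to 50 kb, both medians were 12. Isolation at 100 or 300 kb, or counting other zinc finger names, kept all 3 within their intervals. Chosen after seeing the data were listed promoters, other zinc finger names, leaving out Zfp36 or genes with shared peaks, and the alternatives for single ends and listed promoters. No paired analysis was possible because the list carries no values per library, and for the same reason no replicate could be left out.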
